A study of Macaca fascicularis with 6 samples.

Results

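The change in the RNA of cynomolgus monkey oocytes (Macaca fascicularis) that matured in culture was measured by comparing 2 IVM MII libraries with 2 GV libraries, 4 of the 6 libraries of the series, over all 15815 genes with enough counts to be tested out of 28164 in the table. A GV oocyte still has its intact nucleus, the germinal vesicle, and rests in the first meiotic prophase. An IVM MII oocyte was taken out immature, completed the first meiotic division in a dish and stopped at metaphase of the second. Both groups were labelled wild type, untreated and stripped of their surrounding cells. Age of the animals, culture medium, time in culture, hormone treatment and how many oocytes or animals went into a library were not stated in the sources used here. Whether the libraries of a group came from separate animals is thus not known, and p-values measure the spread between these libraries. The other 2 libraries, MII oocytes matured in the animal, entered the fit for its estimate of spread and are not described. Messenger RNA was copied from its poly(A) tail, extended by template switching, amplified as full-length cDNA and sequenced as read pairs.

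A fully grown oocyte makes almost no new RNA until the embryo switches its genome on, so maturation runs on transcripts stored during growth. Release from prophase follows a fall in cyclic AMP and the activation of CDK1 with cyclin B. The MOS and MAP kinase pathway and EMI2, an inhibitor of the anaphase-promoting complex (APC), then hold the egg at metaphase. Stored messengers are woken by lengthening their poly(A) tails, a step steered by CPEB proteins, while others lose their tails to the CCR4-NOT deadenylase and are degraded. Because the cDNA was primed on poly(A), a change in tail length and a change in the amount of a transcript cannot be told apart here, and levels are relative to the rest of the same library.

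The GV libraries held 31421282 and 32777458 counts and the IVM MII libraries 35515139 and 33875153. Levels are CPM, counts scaled to library size with TMM factors. A value after ± is the standard error of a log2 fold change of IVM MII against GV from the fit, with n = 2 libraries per group, and numbers in parentheses after a gene are its log2 fold change and that error. Genes said to rise or fall, to be higher or lower or to be called, passed edgeR's quasi-likelihood test at a Benjamini-Hochberg adjusted p of 0.05 over the 15815 genes. Across genes the libraries of a group correlated at 0.982 (GV) and 0.979 (IVM MII) in log2 CPM, and libraries of different groups at 0.875 to 0.895.

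In all, 7961 genes changed in relative level during maturation in culture, and the falls were steeper than the rises. Of the 15815 genes, 4053 rose and 3908 fell, which is 50.3% called, 25.6% higher and 24.7% lower. A gene list called in both directions at shares near these does not stand out from the tested genes. Past 8-fold, 743 genes had fallen (4.7% of those tested) and 99 had risen (0.626%). TMM scaling itself sets the middle of the distribution near no change, and the median log2 fold change was 0.06. The 5th and 95th percentiles were -2.96 and 1.71. Both IVM MII libraries lay on the same side of both GV libraries for 77.8% of the tested genes, so a lack of overlap is common here. With scaling by library totals in place of TMM the median was 0.35, and 5276 genes rose and 3004 fell, 63.7% of the calls being higher against 50.9%. Leaving out GV replicate 2 lowered the number that rose to 2580.

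**Figure D1:**
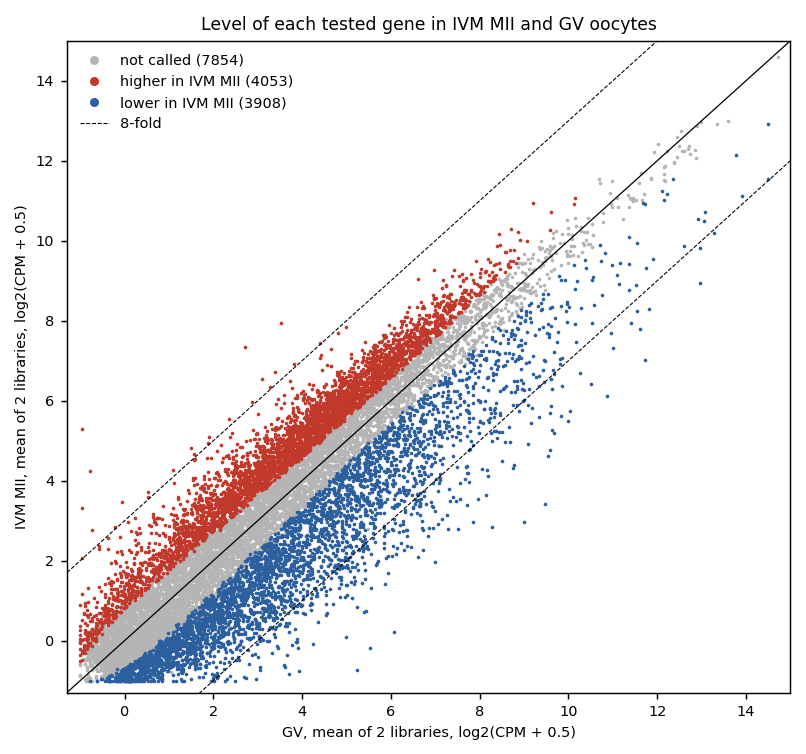
Mean level of each tested gene in 2 GV libraries (horizontal axis) and 2 IVM MII libraries (vertical axis), as log2(CPM + 0.5), each gene a point coloured by its call. The 4053 genes that rose lie in a narrow band above the diagonal, while the 3908 genes that fell spread farther below it. By the log2 fold change of the fit, 99 genes rose and 743 fell past 8-fold. Adding 0.5 to each level draws genes of low level closer to the diagonal, so fewer pass the dashed 8-fold lines.

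The pool also became less dominated by its most abundant transcripts. The 10 leading genes held 13.5% and 14.9% of the counts in the GV libraries and 8.83% and 11.003% in the IVM MII libraries. It took 178 and 154 genes to reach 50% of the counts in GV and 459 and 329 in IVM MII. Genes at 1000 CPM or more numbered 139 in each GV library and 86 and 116 in IVM MII. At the other end, 12766 and 12927 genes reached 1 CPM in GV, and 12242 and 12059 did so in IVM MII. Each of these ranges was without overlap between the groups.

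Per kilobase of exon, the most abundant named transcripts were UBB, CKS1B, H2BN1, TMSB4X, DPPA3, PTTG1, IAH1 and ZP3 in GV, and CKS1B, TMSB4X, DPPA3, UBB, H3F3B, BCL2L10, PTTG1 and ZP3 in IVM MII. UBB, a polyubiquitin gene, led GV at 15770.0 CPM per kilobase and had 5297 in IVM MII. H2BN1, an H2B-type histone gene at chr16:29263704-29287112 (macFas5), listed in the file by its gene number,, went from 9587 to 583 CPM per kilobase. IAH1, an esterase gene, went from 5428 to 1052. These were 3 of the 5 genes with the largest losses in CPM, together with GDF9, the oocyte's growth factor for its cumulus cells, and TCL1B, of the TCL1 oncogene family. UBB stood at 24295 and 21817 CPM in GV against 4491 and 10998 in IVM MII, 2.98-fold lower, and its log2 fold change of -1.57 became -2.34 without IVM MII replicate 2 and -1.03 without IVM MII replicate 1. H2BN1 stood at 8235 and 7813 CPM in GV against 449 and 526 in IVM MII, 16.5-fold lower. Both groups were apart in each gene, as in 77.8% of all tested genes. IAH1 had 7111 and 8382 CPM in GV against 1274 and 1727 in IVM MII, and TCL1B had 4174 and 8296 CPM in GV against 962 and 898 in IVM MII. CKS1B, a CDK subunit needed for cyclin-dependent kinase action, had 12413 and 12441 CPM in GV against 5972 and 10194 in IVM MII (log2 fold change -0.62 ± 0.33, adjusted p = 0.138). DPPA3, a maternal factor that shields the egg's genome from demethylation after fertilization, had 11139 and 9657 CPM in GV against 5985 and 9433 in IVM MII (log2 fold change -0.43 ± 0.33, adjusted p = 0.289). PTTG1, the securin that APC must destroy before chromosomes part, was at 4723 and 4347 CPM in GV against 2164 and 4389 in IVM MII (log2 fold change -0.47 ± 0.35, adjusted p = 0.287), and these 3 genes were not called. CKS1B passed with DESeq2 (adjusted p = 0.0411), with a strict filter of 10 CPM (0.0433) and without IVM MII replicate 2 (0.0279), and PTTG1 passed without IVM MII replicate 2 (adjusted p = 0.0341). Near-identical copies of polyubiquitin, thymosin and histone genes make their counts uncertain.

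The largest gains in CPM were smaller than these losses. AKIRIN2, which brings proteasomes into the nucleus, rose from 626 and 546 CPM in GV to 1807 and 2116 in IVM MII (log2 fold change 1.74 ± 0.30, adjusted p = 6.3e-04). DNMT1, the maintenance DNA methyltransferase, had 1311 and 952 CPM in GV against 2018 and 2254 in IVM MII (log2 fold change 0.92 ± 0.30, adjusted p = 0.0249). EDRF1 had 482 and 354 CPM in GV against 1154 and 1343 in IVM MII (log2 fold change 1.58 ± 0.27, adjusted p = 7.0e-04). PROSER1 and the proteasome subunit gene PSMA7 were the other two, at log2 fold changes of 1.10 ± 0.30 and 0.79 ± 0.26. In each of the 5 both IVM MII libraries were above both GV libraries, and the groups were apart in 77.8% of all tested genes. Calls were lost without GV replicate 2 for DNMT1 (adjusted p = 0.189), PROSER1 (adjusted p = 0.128) and PSMA7 (adjusted p = 0.0504), without IVM MII replicate 2 for DNMT1 (adjusted p = 0.0801) and PSMA7 (adjusted p = 0.0594), and without GV replicate 1 for PSMA7 (adjusted p = 0.186). The strict filter also ended the calls of DNMT1 (adjusted p = 0.0921) and PSMA7 (adjusted p = 0.109), and removing the trend with gene length that of DNMT1 (adjusted p = 0.117).

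Genes ranked here were called, had a symbol and 100 CPM or more in 1 group, and showed no overlap of the groups. The 10 largest rises ran from FCHO1 to GALNT5 and the 10 largest falls from CCDC167 to NINJ2. GRIN2A, an NMDA-type glutamate receptor subunit at chr20:10061738-10492150, had 33.2 and 29.3 CPM in the GV libraries and 219 and 235 CPM in the IVM MII libraries, 7.26-fold higher (log2 fold change 2.86 ± 0.22, adjusted p = 3.5e-06). RAP2C, a Ras-like GTPase, had 20.97 and 21.2 CPM in GV against 122 and 161 in IVM MII (log2 fold change 2.75 ± 0.23, adjusted p = 5.9e-06). CRLS1 makes cardiolipin, the lipid of the inner mitochondrial membrane, and had 25.02 and 20.9 CPM in GV against 124 and 112 in IVM MII (log2 fold change 2.37 ± 0.22, adjusted p = 1.1e-05). Both IVM MII libraries were above both GV libraries in these genes, which the rule for choosing them required. H1-1, a linker histone gene, had 74.2 and 120.1 CPM in GV against 449 and 609 in IVM MII (log2 fold change 2.44 ± 0.31, adjusted p = 9.4e-05). TMEM128, a membrane protein gene, had 22.3 and 19.3 CPM in GV against 128 and 139.6 in IVM MII (log2 fold change 2.69 ± 0.22, adjusted p = 5.2e-06). FCHO1, an adaptor of clathrin-coated pits, was less even, with 25.5 and 17.005 CPM in GV against 152 and 66.4 in IVM MII, and its log2 fold change of 2.36 became 1.68 without IVM MII replicate 1. FAM83D, a spindle protein, had 8.75 and 18.5 CPM in GV against 128 and 113 in IVM MII and a log2 fold change of 3.14. With no low-count filter its adjusted p was 0.0547.

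The steepest falls took transcripts from abundant to scarce. RTCB, the ligase that joins tRNA fragments at chr10:18914982-18940919, had 212 and 246 CPM in the GV libraries and 8.05 and 6.68 CPM in the IVM MII libraries, 31.1-fold lower (log2 fold change -4.96 ± 0.27, adjusted p = 8.9e-07). OTUB1, a deubiquitinase, had 274 and 286 CPM in GV against 11.5 and 12.2 in IVM MII, 23.6-fold lower. DRG1, a ribosome-associated GTPase, had 138 and 174 CPM in GV against 5.74 and 6.99 in IVM MII, 24.5-fold lower. The libraries of a group lay close together in each of the 3 and far from the other group. The rule for choosing these genes required that the groups do not overlap. AKR1B1, the aldose reductase that turns glucose into sorbitol, had 668 and 959.7 CPM in GV against 36.3 and 36.2 in IVM MII (log2 fold change -4.49 ± 0.28, adjusted p = 1.1e-06). CCDC167 had 414 and 447 CPM in GV against 17.6 and 21.3 in IVM MII (log2 fold change -4.47 ± 0.26, adjusted p = 9.6e-07). CSRP1, a LIM-domain protein of the actin cytoskeleton, had 103 and 149 CPM in GV against 5.901 and 0.937 in IVM MII. Its log2 fold change of -5.19 was -7.03 without IVM MII replicate 1 and -4.40 without IVM MII replicate 2, and its call was lost without IVO MII replicate 1 or 2 (adjusted p = 0.0576 and 0.0703).

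**Figure D2:**
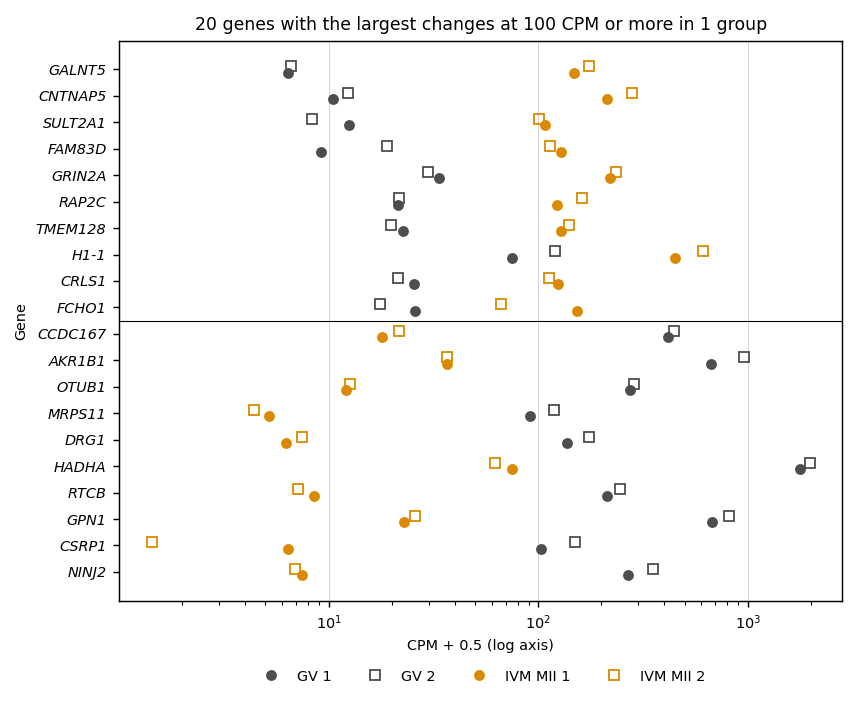
CPM + 0.5 in each GV library (grey) and each IVM MII library (orange), on a log axis, for the 20 genes with the largest log2 fold changes among called genes at 100 CPM or more in 1 group; circles are replicate 1 and squares replicate 2. The 2 libraries of a group lie on the same side in all 20 genes, which the rule for choosing them required. Gaps between replicates are wide in IVM MII for CSRP1 and FCHO1.

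The genes that drive meiosis were called in both directions, as were the tested genes as a whole. Of the CDK1 and cyclin list, 5 of 22 tested members rose (22.7%) and 7 fell (31.8%), against 25.6% and 24.7% of all tested genes. The median of the list was -0.32. CCNE1, the cyclin E that partners CDK2, rose from 41.2 and 37.4 CPM in GV to 96.2 and 74.4 in IVM MII, and CDC25A, a phosphatase that removes the inhibitory phosphates of CDKs, rose by 1.32 ± 0.28 on the log2 scale. CDK2 itself had 5.65 and 10.7 CPM in GV against 1.11 and 0.767 in IVM MII, 8.698-fold lower. The groups did not overlap in any of these 3 genes, nor in 77.8% of all tested genes. CDK1, the catalytic kinase of entry into M phase, had 171 and 138 CPM in GV against 74.5 and 103 in IVM MII (log2 fold change -0.80 ± 0.28, adjusted p = 0.0337). WEE2, the oocyte kinase that keeps CDK1 off, had 4646 and 5911 CPM in GV against 2949 and 3024 in IVM MII (log2 fold change -0.82 ± 0.29, adjusted p = 0.0321). CCNB1, the main cyclin of CDK1, had 729 and 712 CPM in GV against 746 and 792 in IVM MII (log2 fold change 0.09 ± 0.23, adjusted p = 0.754) and was not called. Library totals ended the calls of CDK1 (adjusted p = 0.156) and WEE2 (adjusted p = 0.0938), and removing the length trend that of CDK1 (adjusted p = 0.106). Calls were lost for CDK1 (adjusted p = 0.155) and WEE2 (adjusted p = 0.0621) without GV replicate 1, for CDK1 (adjusted p = 0.246) and WEE2 (adjusted p = 0.0828) without IVM MII replicate 1, and for CDK1 (adjusted p = 0.0503) and WEE2 (adjusted p = 0.0694) without IVM MII replicate 2. WEE2 was also lost without GV replicate 2 or IVO MII replicate 2 (adjusted p = 0.232 and 0.0553). Without GV replicate 2, 2 CDK1 list genes were called higher and 4 lower. Without IVM MII replicate 2, 3 CDK1 list genes were called higher. Without GV replicate 1 or IVM MII replicate 1, 3 CDK1 list genes were called lower. With library totals the calls were 7 higher and 2 lower among CDK1 list genes. Removing the length trend gave 5 higher and 4 lower among CDK1 list genes.

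In the list of the metaphase arrest, 5 of 17 tested members rose and 5 fell, 29.4% each, against 25.6% and 24.7% of all tested genes. FBXO43, the gene of EMI2, had 10.3 and 8.32 CPM in the GV libraries and 41.95 and 42.5 CPM in the IVM MII libraries (log2 fold change 2.18 ± 0.23, adjusted p = 2.4e-05). It was among the members that rose. MOS itself had 126 and 174 CPM in GV against 193 and 137 in IVM MII (log2 fold change 0.14 ± 0.41, adjusted p = 0.799) and was not called. With GV replicate 2 or IVM MII replicate 1 removed, 2 arrest genes were called higher and 2 lower. With IVM MII replicate 2 removed, 2 arrest genes were called higher. With GV replicate 1 removed, 2 arrest genes were called lower. Scaling by library totals gave 8 higher and 1 lower among arrest genes. With the length trend removed there were 2 higher and 4 lower among arrest genes. RLE factors gave 3 higher and 6 lower among arrest genes.

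Genes of the cyclic AMP brake rose more often than they fell, with 7 of 18 tested members higher and 2 lower (median 0.75, against 0.06 for all genes). PDE3A, the phosphodiesterase whose action on cyclic AMP lets the oocyte resume meiosis, had 17.4 and 10.4 CPM in GV against 36.4 and 46.1 in IVM MII (log2 fold change 1.57 ± 0.27, adjusted p = 7.4e-04). PDE8A (1.11 ± 0.24) and the protein kinase A catalytic gene PRKACB (2.33 ± 0.28) also rose. ADCY3, an adenylyl cyclase that makes cyclic AMP, had 176 and 182 CPM in GV against 21.3 and 18.2 in IVM MII, 9.09-fold lower, and its groups were far apart. When GV replicate 2 was left out, 4 cyclic AMP genes were called higher.

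Subunits of the anaphase-promoting complex, the ubiquitin ligase that ends metaphase, went both ways: 8 of 19 tested members rose and 5 fell. ANAPC16 (1.44 ± 0.24), ANAPC10 (1.26 ± 0.22) and CDC26 (1.07 ± 0.22) rose while ANAPC13 (-2.43 ± 0.23) and ANAPC2 (-2.56 ± 0.60) fell. Cohesin and condensin genes, which hold sister chromatids together and compact them, rose more often than they fell: 15 of 28 tested members rose and 1 fell (median 0.69). SMC1B, the meiotic cohesin subunit, had 3.51 and 3.85 CPM in GV against 14.1 and 14.3 in IVM MII (log2 fold change 1.95 ± 0.29, adjusted p = 2.5e-04), and the condensin gene NCAPG2 (1.44 ± 0.21) rose as well. STAG3 (-0.78 ± 0.27), another meiotic cohesin, was the member that fell. When GV replicate 1 or IVM MII replicate 1 was left out, 3 APC genes were called lower. Where GV replicate 2 was omitted, 3 APC genes were called lower, and 7 cohesin and condensin genes higher and 0 lower. When IVM MII replicate 2 was left out, 0 cohesin and condensin genes were called lower. Library totals moved the calls to 10 higher and 3 lower among APC genes, and 16 higher and 0 lower among cohesin and condensin genes. Without the trend on length the calls were 12 higher and 2 lower among cohesin and condensin genes. The call for STAG3 was lost without GV replicate 2, IVM MII replicate 1 or IVM MII replicate 2 (adjusted p = 0.228, 0.0609 and 0.15) and with library totals (adjusted p = 0.183).

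Kinesins, the motors that move along microtubules, were mostly higher or not called: 16 of 32 tested members rose and 2 fell (median 0.77). KIF2A, which takes microtubules apart at spindle poles, had 5.96 and 4.16 CPM in GV against 16.8 and 18.4 in IVM MII (log2 fold change 1.80 ± 0.27, adjusted p = 2.7e-04), and KIF3A (1.13 ± 0.21) rose too. KIF18B, a microtubule depolymerase, had 11.3 and 10.3 CPM in GV against 2.06 and 1.25 in IVM MII, 6.53-fold lower. In the spindle assembly list 16 of 39 tested members rose and 8 fell, with the dynein chain DYNC1LI2 (1.70 ± 0.23) among the risen and the dynactin genes DCTN1 (-2.85 ± 0.26) and DCTN2 (-3.10 ± 0.26) among the fallen. Kinetochore genes gave 12 rises and 6 falls of 37. The centromeric histone CENPA had 6.84 and 5.71 CPM in GV against 23.4 and 26.9 in IVM MII (log2 fold change 2.00 ± 0.25, adjusted p = 7.6e-05), while BIRC5 (survivin), of the chromosomal passenger complex, had 136 and 135 CPM in GV against 49.2 and 39.6 in IVM MII (log2 fold change -1.61 ± 0.22, adjusted p = 1.4e-04). Once GV replicate 2 was removed, 10 kinesins were called higher, and 9 spindle genes higher and 5 lower. Where IVM MII replicate 2 was omitted, 10 kinesins were called higher. Without IVM MII replicate 1, 5 spindle genes were called lower. The calls with the length trend removed were 10 higher and 8 lower among spindle genes.

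Tubulins, the bricks of the spindle itself, had the lowest median of the lists with 10 or more tested members, -2.33: 1 of 11 tested members rose and 8 fell. TUBA4A had 181 and 233 CPM in the GV libraries and 21.5 and 18.2 CPM in the IVM MII libraries, 10.5-fold lower (log2 fold change -3.39 ± 0.24, adjusted p = 2.0e-06). TUBAL3 (-3.33 ± 0.26) fell as well. TUBB8, the beta tubulin of primate oocytes, had 209.6 and 511 CPM in GV against 32.4 and 40.8 in IVM MII, and its log2 fold change of -3.30 was -2.51 without GV replicate 2. The risen member was TUBB1 (1.33 ± 0.35), whose call was lost without GV replicate 2 or IVM MII replicate 2 (adjusted p = 0.0688 and 0.0703). Tubulin genes have close copies and pseudogenes, so their counts are uncertain. Among actin genes 12 of 35 tested members rose and 8 fell. SPIRE1, which nucleates the actin mesh that moves the spindle to the cortex, had 10.04 and 10.8 CPM in GV against 54.2 and 75.5 in IVM MII (log2 fold change 2.64 ± 0.25, adjusted p = 1.2e-05), and cytoplasmic ACTG1 (-1.73 ± 0.25) fell. If GV replicate 2 was left out, 0 tubulins were called higher, and 7 actin genes higher and 3 lower. Once IVM MII replicate 2 was removed, 0 tubulins were called higher and 5 actin genes lower. Where GV replicate 1 was omitted, 5 actin genes were called lower.

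**Figure D3:**
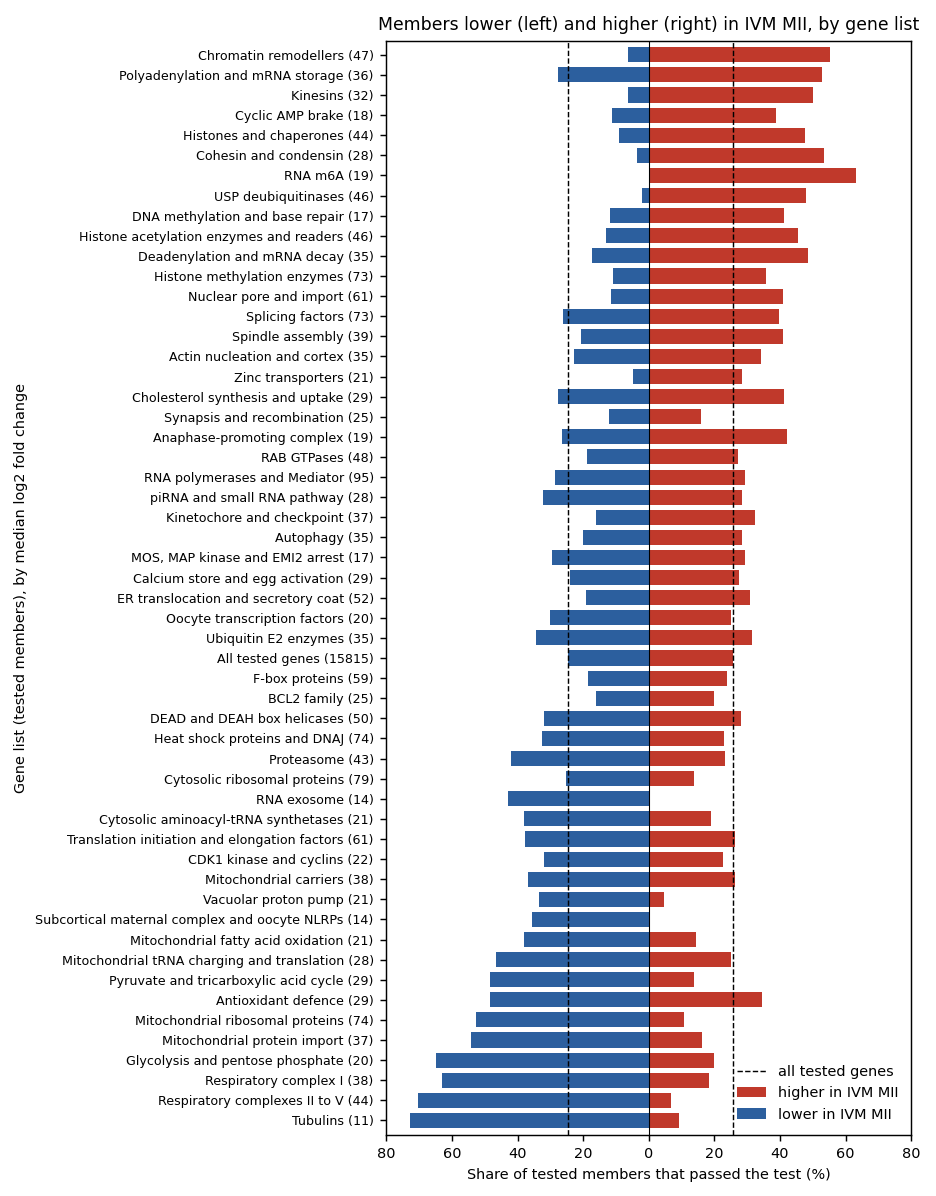
Share of the tested members of each gene list with 10 or more tested members that were lower (blue, left) or higher (red, right) in IVM MII than in GV, sorted by median log2 fold change, with the number tested in parentheses; dashed lines mark the shares over all tested genes, 24.7% and 25.6%. Tubulin, respiratory chain and glycolysis lists lie at the bottom with long blue bars, and chromatin remodellers, mRNA storage genes and kinesins lie at the top with long red bars.

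The lists of messenger storage and of deadenylation and decapping each gave more rises than falls, and that of the RNA exosome gave falls alone. Polyadenylation and storage genes were frequent among the calls: 19 of 36 tested members rose and 10 fell (median 0.79). CPEB1, which binds the cytoplasmic polyadenylation element and directs tail lengthening, had 327 and 330.1 CPM in GV against 749.7 and 614 in IVM MII (log2 fold change 1.05 ± 0.24, adjusted p = 0.00324). CPEB2 (2.08 ± 0.26) and CPEB4 (1.54 ± 0.23), of the same family, rose, as did EIF4E1B (1.49 ± 0.23), an oocyte cap-binding protein that holds messengers silent. Both IVM MII libraries were above both GV libraries in these 4 genes, and the groups did not overlap in 77.8% of all tested genes. ZAR1, an RNA-binding protein that stores maternal messengers near mitochondria, went the other way, with 79.1 and 75.02 CPM in GV against 16.9 and 16.4 in IVM MII, 4.62-fold lower. NANOS1, a translational repressor of the germ line, had 121 and 90.8 CPM in GV against 14.5 and 11.1 in IVM MII (log2 fold change -3.05 ± 0.25, adjusted p = 5.3e-06). YBX2, the germ-cell Y-box protein that packages messengers, had 13.2 and 8.86 CPM in GV against 1.78 and 1.16 in IVM MII (log2 fold change -2.89 ± 0.36, adjusted p = 7.6e-05). CSTF1 (-2.66 ± 0.24), of the cleavage complex, fell too.

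On the decay side 17 of 35 tested members rose and 6 fell (median 0.58). The decapping gene DCP2 (1.46 ± 0.26) and the 5' exonuclease XRN1 (1.87 ± 0.25) rose, as did CNOT6L (1.36 ± 0.24), the deadenylase subunit of CCR4-NOT that acts in maturing oocytes. CNOT6L had 93.3 and 66.97 CPM in GV against 189.7 and 223 in IVM MII. CNOT1, the scaffold of that complex, had 115 and 85.1 CPM in GV against 36.1 and 43.2 in IVM MII (log2 fold change -1.34 ± 0.26, adjusted p = 0.00143), so the subunits of CCR4-NOT did not share a direction. BTG4, which brings CCR4-NOT to messengers, had 7178 and 6242 CPM in GV against 3905 and 6725 in IVM MII (log2 fold change -0.34 ± 0.32, adjusted p = 0.408) and was not called. DCPS, the scavenger of cap remnants, had 114 and 145 CPM in GV against 33.7 and 39.8 in IVM MII, 3.52-fold lower. The RNA exosome, which degrades from the 3' end, had 0 rises and 6 falls among 14 members (median -0.31), with EXOSC1 (-2.65 ± 0.25), EXOSC5 (-2.94 ± 0.44) and EXOSC2 (-1.85 ± 0.31) lowest in adjusted p. Genes of m6A, the methyl mark on messengers that its readers act on, had 12 rises and 0 falls among 19 (median 0.64). The writer subunits ZC3H13 (1.63 ± 0.25) and RBM15 (1.55 ± 0.24) were among them. Without GV replicate 2, 9 decay genes were called higher and 6 m6A genes higher. With IVM MII replicate 1 removed, 11 decay genes were called higher. If IVM MII replicate 2 was left out, 7 m6A genes were called higher. Under library totals there were 2 higher and 6 lower among exosome genes. Once the length trend was removed, calls were 1 higher and 6 lower among exosome genes, and 7 higher and 0 lower among m6A genes.

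Genes of the translation machinery were called in both directions in every class, and the balance depended on the scaling. Initiation and elongation factors had 16 rises and 23 falls among 61, and cytosolic tRNA synthetases 4 and 8 among 21 (medians -0.31 and -0.31). EIF6, which keeps the ribosomal subunits apart, had 307 and 364 CPM in GV against 28.3 and 37.8 in IVM MII, 10.1-fold lower. EIF4E3, a cap-binding relative of EIF4E, had 16.6 and 14.2 CPM in GV against 54.3 and 47.3 in IVM MII (log2 fold change 1.72 ± 0.23, adjusted p = 1.2e-04). Of the arginine and aspartate synthetases, RARS (-3.08 ± 0.25) fell and DARS (1.24 ± 0.21) rose. Ribosomal protein genes had 11 rises and 20 falls among 79, and most were not called. The share that fell, 25.3%, was close to the 24.7% of all genes. Their median was -0.17, 0.14 with library totals and 0.32 with the trend of the fold change on gene length removed, so it has no stable direction. FAU (-2.64 ± 0.23) and RPL19 (-2.43 ± 0.24) fell and RPL27 (1.28 ± 0.22) rose. With GV replicate 2 removed, 8 translation factors were called higher and 6 ribosomal proteins higher. Once GV replicate 1 was removed, 4 ribosomal proteins were called higher. Without IVM MII replicate 2, 5 ribosomal proteins were called higher. When IVM MII replicate 1 was left out, 10 ribosomal proteins were called lower. Calls by library totals were 20 higher and 17 lower among translation factors, 8 higher and 7 lower among tRNA synthetases, and 18 higher and 14 lower among ribosomal proteins. Removing the length trend gave 20 higher and 10 lower among ribosomal proteins.

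Nuclear RNA machinery split by subunit. Splicing factors had 29 rises and 19 falls among 73 (median 0.53). The SR protein genes SRSF4 (1.71 ± 0.23) and SRSF11 (1.44 ± 0.23) rose, while the SF3B subunit gene SF3B5 had 39.9 and 40.5 CPM in GV against 1.83 and 2.58 in IVM MII, 18.2-fold lower. RNA polymerase, general factor and Mediator genes had 28 rises and 27 falls among 95 (29.5% and 28.4%, against 25.6% and 24.7% of all tested genes). MED30 had 8.71 and 9.67 CPM in GV against 87.6 and 74.3 in IVM MII and TAF3 45.4 and 39.4 CPM in GV against 181 and 173 in IVM MII, both higher. POLR2H, a subunit shared by the RNA polymerases, had 285 and 295 CPM in GV against 43.3 and 47.8 in IVM MII, 6.37-fold lower, and POLR2I and POLR3K had log2 fold changes of -3.73 ± 0.30 and -3.17 ± 0.24. Subunits of the same machinery lay at opposite ends of the distribution. Nuclear pore and import genes leaned upward, 25 of 61 against 7 lower (median 0.54), with SEH1L (1.73 ± 0.22) and the lamina gene TMPO (1.45 ± 0.22) higher and the importin KPNA2 (-1.61 ± 0.25) lower. Removing the trend with gene length gave 20 higher and 10 lower among nuclear pore and import genes, with a median of 0.22. When GV replicate 2 was left out, 17 splicing genes were called higher and 12 lower, and 17 polymerase and Mediator genes higher. If GV replicate 1 or IVM MII replicate 2 was left out, 12 splicing genes were called lower. Where IVM MII replicate 1 was omitted, 10 splicing genes were called lower. With library totals the calls were 36 higher and 12 lower among splicing genes, and 44 higher and 23 lower among polymerase and Mediator genes. RLE factors gave 25 higher and 27 lower among polymerase and Mediator genes.

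Chromatin genes were mostly higher where they were called. Remodellers, which slide and eject nucleosomes, had 26 rises and 3 falls among 47 and the highest median of the lists drawn in the plot of shares, 0.98 (0.65 with the length trend removed). BAZ1A, of the ISWI complexes, had 258 and 227 CPM in GV against 735 and 712 in IVM MII (log2 fold change 1.58 ± 0.23, adjusted p = 2.4e-04). Histone acetylation genes had 21 rises and 6 falls among 46, with the acetyltransferases CREBBP (1.37 ± 0.22) and KAT2A (-1.91 ± 0.23) in opposite directions. Histone methylation genes had 26 and 8 among 73: PRMT3 (2.82 ± 0.29) and KMT2E (2.27 ± 0.25) rose and WDR5 (-3.38 ± 0.23) fell. Histones and their chaperones had 21 rises and 4 falls among 44. H2AX, the variant marked at DNA breaks, had 2.14 and 2.64 CPM in GV against 18.6 and 12.8 in IVM MII (log2 fold change 2.71 ± 0.31, adjusted p = 4.8e-05). MACROH2A2 had 128 and 128 CPM in GV against 41.8 and 41.8 in IVM MII (log2 fold change -1.62 ± 0.21, adjusted p = 9.9e-05). In DNA methylation, TET2, which oxidises methylcytosine, and DNMT3B, a de novo methyltransferase, rose by 1.16 ± 0.24 and 1.00 ± 0.22 on the log2 scale, and DNMT3A (-0.90 ± 0.27) fell. Without GV replicate 1, 1 remodeller was called lower and 1 DNA methylation gene lower. Where GV replicate 2 was omitted, 1 remodeller was called lower, 13 methylation enzymes higher, 11 histone genes higher, and 4 DNA methylation genes higher. With IVM MII replicate 2 removed, 1 DNA methylation gene was called lower. Scaling by library totals gave 32 higher and 1 lower among remodellers, 23 higher and 3 lower among acetylation genes, and 8 higher and 0 lower among DNA methylation genes. With the length trend removed there were 20 higher and 5 lower among remodellers, 17 higher and 11 lower among methylation enzymes, and 3 higher and 2 lower among DNA methylation genes. Among acetylation genes the same step gave 16 higher and 9 lower, and their median went from 0.59 to 0.21. The call for DNMT3A was lost without GV replicate 1 or IVM MII replicate 2 (adjusted p = 0.0887 and 0.145) and with library totals (adjusted p = 0.142). Removing the length trend lowered the log2 fold changes of TET2 to 0.69 and of CREBBP to 0.88.

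Nuclear genes of the mitochondrial energy system fell in large numbers. Respiratory complexes II to V had 3 rises and 31 falls among 44 (median -2.06), and complex I 7 and 24 among 38 (median -1.82). Past 8-fold, 11 and 4 members had fallen. COX8A, a cytochrome oxidase subunit, had 73.6 and 90.97 CPM in GV against 4.397 and 4.94 in IVM MII, 17.6-fold lower. ATP5G1, 1 of the genes for the membrane ring of ATP synthase, had 30.7 and 37.7 CPM in GV against 1.41 and 1.76 in IVM MII, 21.6-fold lower. The other tested genes for that ring also fell, less steeply. NDUFA9, of complex I, had 38.7 and 32.6 CPM in GV against 2.08 and 2.27 in IVM MII, 16.4-fold lower. The GV libraries were far above the IVM MII libraries in COX8A, ATP5G1 and NDUFA9, and the groups did not overlap in 77.8% of all tested genes. Members that rose stood in the same complexes: NDUFB3 had 4.46 and 3.99 CPM in GV against 11.1 and 14.2 in IVM MII (log2 fold change 1.58 ± 0.29, adjusted p = 0.00106), and the membrane anchors of complex II, SDHC (1.44 ± 0.29) and SDHD (1.14 ± 0.24), rose while its flavoprotein SDHA (-2.67 ± 0.49), chosen after its value was seen, fell. With GV replicate 1 removed, 4 complex I genes were called higher. Once GV replicate 2 was removed, 3 complex I genes were called higher. When IVM MII replicate 2 was left out, 2 complex I genes were called higher. Without the trend on length the calls were 7 higher and 28 lower among complex II to V genes.

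The genes that build and feed mitochondria fell beside them. Mitochondrial ribosomal proteins had 8 rises and 39 falls among 74 (median -1.08), with MRPL35 at 125 and 129.7 CPM in GV against 8.82 and 9.03 in IVM MII and, on the other side, MRPS28 at 54.1 and 51.4 CPM in GV against 114 and 160.3 in IVM MII. Protein import had 6 and 20 among 37 (median -1.18). TIMM50, the receptor of the inner membrane import channel, had 10.2 and 18.5 CPM in GV against 0.625 and 0.426 in IVM MII (log2 fold change -4.75 ± 0.43, adjusted p = 8.4e-06). Glycolysis and the pentose phosphate path had 4 rises and 13 falls among 20 (median -1.22), with GAPDH (-4.12 ± 0.29), GPI (-4.24 ± 0.35) and ENO1 (-3.49 ± 0.34) leading the falls. The tricarboxylic acid list had 4 and 14 among 29. MPC1, a subunit of the carrier that takes pyruvate, the oocyte's main fuel, into mitochondria, had 179 and 227 CPM in GV against 14.3 and 17.3 in IVM MII, and PDHA1, of pyruvate dehydrogenase, had 141 and 194 CPM in GV against 24.8 and 23.2 in IVM MII. Both were lower in both IVM MII libraries, and a lack of overlap was found in 77.8% of all tested genes. When GV replicate 1 was left out, 5 mitochondrial ribosomal genes were called higher and 2 tricarboxylic acid genes higher. If GV replicate 2 was left out, 3 import genes were called higher, 8 glycolysis genes lower, and 1 tricarboxylic acid gene higher. Where IVM MII replicate 2 was omitted, 3 import genes were called higher and 2 tricarboxylic acid genes higher. Library totals moved the calls to 14 higher and 36 lower among mitochondrial ribosomal genes, and 4 higher and 8 lower among glycolysis genes. The calls with the length trend removed were 13 higher and 35 lower among mitochondrial ribosomal genes.

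Antioxidant genes were called in both directions. In this list 10 of 29 tested members rose and 14 fell (median -0.99). Peroxiredoxins, which remove peroxide, were among the falls: PRDX1 had 481 and 439.96 CPM in the GV libraries and 53.4 and 64.9 CPM in the IVM MII libraries, 7.78-fold lower, and PRDX2 had 156 and 165 CPM in GV against 10.5 and 10.9 in IVM MII, 15.04-fold lower. NFE2L2 (NRF2), the transcription factor of the antioxidant response, had 5.65 and 4.699 CPM in GV against 20.5 and 16.3 in IVM MII (log2 fold change 1.83 ± 0.28, adjusted p = 3.2e-04). TXNRD1, which recharges thioredoxin, had 8.78 and 7.17 CPM in GV against 25.7 and 25.7 in IVM MII (log2 fold change 1.69 ± 0.25, adjusted p = 2.6e-04), and glutathione reductase GSR (1.44 ± 0.25) also rose. The peroxiredoxin PRDX3 (1.14 ± 0.23), which works in mitochondria, rose and was chosen after its value was seen. The family did not share a direction. Where GV replicate 1 was omitted, 6 antioxidant genes were called higher. Once IVM MII replicate 2 was removed, 5 antioxidant genes were called higher.

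**Figure D4:**
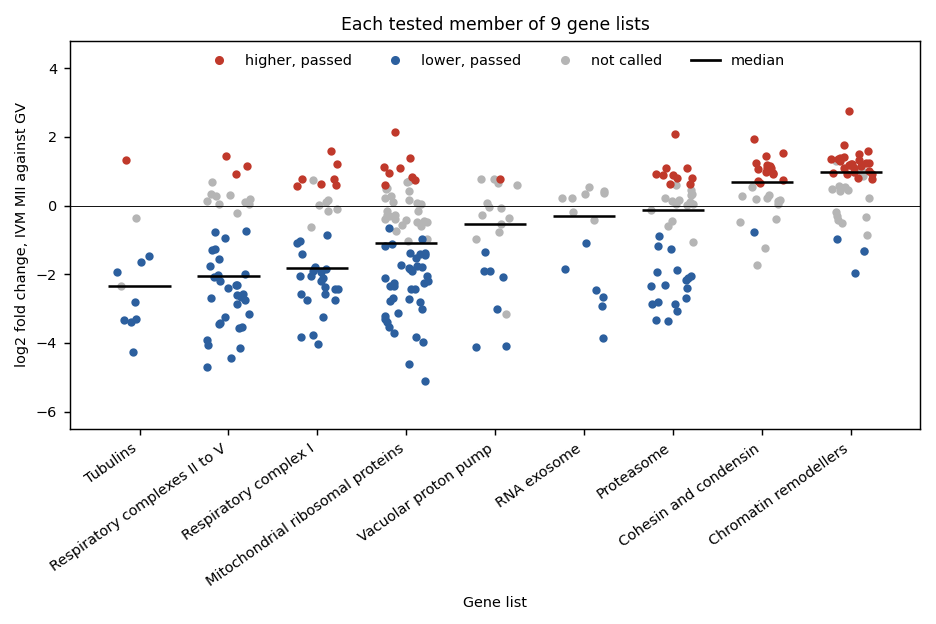
Log2 fold change of IVM MII against GV (vertical axis) for each tested member of 9 gene lists (horizontal axis), red or blue where the member passed the test and grey where it did not, with a black bar at the median. The medians run from -2.33 for tubulins to 0.98 for chromatin remodellers, and 8 of the 9 lists hold members called in both directions, the RNA exosome being the exception.

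Protein quality genes were split likewise. Proteasome genes had 10 rises and 18 falls among 43, with a median of -0.13 that turns to 0.20 with library totals and 0.29 with the length trend removed. PSMB1, of the catalytic core, had 636 and 937 CPM in GV against 72.7 and 81.7 in IVM MII, and PSMC5, an ATPase of the cap, had 89.8 and 107 CPM in GV against 9.05 and 10.5 in IVM MII. PSMD1, a scaffold of the same cap, had 76.7 and 83.5 CPM in GV against 169 and 172 in IVM MII and rose. USP deubiquitinases were the most one-sided of these lists: 22 of 46 tested members rose and 1 fell (median 0.61), with USP46 (2.10 ± 0.33) lowest in adjusted p. Chaperones gave 17 rises and 24 falls among 74. CCT5, of the chaperonin that folds actin and tubulin, had 127 and 146 CPM in GV against 14.2 and 20.4 in IVM MII, 7.903-fold lower, while the co-chaperone DNAJB4 (3.20 ± 0.25) rose. Once GV replicate 1 was removed, 5 proteasome genes were called higher. Without GV replicate 2, 6 proteasome genes were called higher, 14 USP genes higher and 2 lower, and 11 chaperones higher. If IVM MII replicate 2 was left out, 6 proteasome genes were called higher. Under library totals there were 23 higher and 19 lower among chaperones. Once the length trend was removed, calls were 17 higher and 3 lower among USP genes.

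Autophagy genes gave 10 rises and 7 falls among 35, with MAP1LC3B (1.19 ± 0.21), the membrane tag of autophagosomes, higher and ATG7 (-3.21 ± 0.26), the enzyme that activates it, lower. In the BCL2 and cell death list 5 of 25 tested members rose and 4 fell. BCL2L11 (BIM), which promotes cell death, had 2.76 and 2.27 CPM in GV against 12.4 and 9.66 in IVM MII (log2 fold change 2.14 ± 0.29, adjusted p = 1.4e-04), whereas DIABLO, a mitochondrial antagonist of death inhibitors, had 518 and 497 CPM in GV against 72.8 and 80.8 in IVM MII, 6.61-fold lower, and BID (-3.82 ± 0.34) fell. BCL2L10, among the most abundant transcripts of both groups per kilobase, had 5061 and 6092 CPM in GV against 6829 and 5578 in IVM MII (log2 fold change 0.15 ± 0.29, adjusted p = 0.681) and was not called. With GV replicate 2 removed, 3 autophagy genes were called lower and 2 cell death genes lower. Once IVM MII replicate 1 was removed, 4 autophagy genes were called lower and 3 cell death genes higher. Without IVM MII replicate 2, 2 autophagy genes were called lower and 2 cell death genes lower. If GV replicate 1 was left out, 2 cell death genes were called lower. Calls by library totals were 15 higher and 2 lower among autophagy genes, and 7 higher and 2 lower among cell death genes. Removing the length trend gave 4 higher and 2 lower among cell death genes.

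Among membrane and ion genes, the vacuolar proton pump had 1 rise and 7 falls among 21 (median -0.54). ATP6V1E1, of its stalk, had 317 and 268 CPM in GV against 15.9 and 17.9 in IVM MII, 17.3-fold lower, and ATP6V1D (-4.10 ± 0.29) fell as steeply. Zinc transporters had 6 rises and 1 fall among 21. SLC39A14, a zinc importer, had 7.73 and 6.66 CPM in GV against 28.2 and 24.6 in IVM MII (log2 fold change 1.87 ± 0.25, adjusted p = 1.4e-04). Maturing oocytes take up zinc and release it at fertilization. Calcium store and egg activation genes had 8 and 7 among 29 (27.6% and 24.1%), near the 25.6% and 24.7% of all tested genes. CAMK2G, the calmodulin kinase that ends metaphase arrest after the calcium signal, had 19.98 and 22.8 CPM in GV against 66.3 and 45.8 in IVM MII (log2 fold change 1.39 ± 0.25, adjusted p = 8.3e-04). ORAI1, a store-operated calcium channel, had 4.83 and 6.36 CPM in GV against 0.902 and 0.5397 in IVM MII, 7.76-fold lower. Cholesterol genes had 12 rises and 8 falls among 29, with the late enzyme SC5D (1.65 ± 0.22) higher and the early one FDPS (-4.23 ± 0.37) lower. Without GV replicate 1, 0 proton pump genes were called higher, 4 calcium genes lower, and 6 cholesterol genes higher and 5 lower. If IVM MII replicate 1 was left out, 0 proton pump genes were called higher, 2 zinc transporters lower, and 7 cholesterol genes higher and 4 lower. With IVM MII replicate 2 removed, 2 proton pump genes were called higher, 5 calcium genes higher, and 5 cholesterol genes lower. Without IVO MII replicate 1 or IVO MII replicate 2, 2 proton pump genes were called higher and 2 zinc transporters lower. When GV replicate 2 was left out, 4 calcium genes were called higher and 5 cholesterol genes lower. With library totals the calls were 3 higher and 7 lower among proton pump genes. With the length trend removed there were 4 higher and 8 lower among calcium genes.

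In the subcortical maternal complex, egg coat and paracrine lists, 0%, 12.5% and 0% of tested members rose, against 25.6% of all tested genes. Falls made up 35.7%, 37.5% and 40.0%, against 24.7%, in short lists of 14, 8 and 5 tested members. The subcortical maternal complex is a protein assembly under the egg membrane that early cleavage depends on. In the list of its genes and other oocyte NLRPs, 0 of 14 tested members rose and 5 fell (median -0.54). NLRP5 (MATER) had 435 and 575 CPM in the GV libraries and 85.1 and 86.6 CPM in the IVM MII libraries (log2 fold change -2.56 ± 0.26, adjusted p = 1.7e-05). OOEP had 3262 and 4434 CPM in GV against 666 and 817 in IVM MII, and PADI6 had 544 and 1179 CPM in GV against 180.4 and 171 in IVM MII. Both were lower, and the log2 fold change of PADI6, -2.29, was -1.63 without GV replicate 2. KHDC3L, of the same complex, had 1384 and 2121 CPM in GV against 1543 and 1755 in IVM MII (log2 fold change -0.09 ± 0.27, adjusted p = 0.805) and was not called. IZUMO1R (JUNO), the receptor to which the sperm binds, had 181 and 236 CPM in GV against 24.9 and 15.1 in IVM MII, 10.4-fold lower (log2 fold change -3.38 ± 0.29, adjusted p = 6.7e-06). Of the egg coat genes, 1 of 8 tested members rose and 3 fell. ZP3, the most abundant of them per kilobase, had 5239 and 9449.8 CPM in GV against 5008 and 4852 in IVM MII (log2 fold change -0.58 ± 0.36, adjusted p = 0.198). GDF9 had 13613 and 14223 CPM in the GV libraries and 4004 and 5000.2 CPM in the IVM MII libraries, 3.09-fold lower, and GJA4 (connexin 37), the channel between oocyte and cumulus cells, had 2.04 and 3.25 CPM in GV against 0.185 in IVM MII replicate 1 and a level under the floor of 3 counts, 0.0852 CPM, in IVM MII replicate 2. These were the 2 falls among 5 tested paracrine genes. With GV replicate 1 or IVM MII replicate 1 removed, 0 egg coat genes were called higher.

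Oocyte transcription factors and germ-line genes gave mixed calls. Of the transcription factors, 5 of 20 rose and 6 fell. TBPL2, the TBP relative that drives transcription in growing oocytes, had 93.1 and 87.1 CPM in GV against 12.4 and 15.7 in IVM MII, 6.41-fold lower. FIGLA, the activator of the zona pellucida genes, had 71.5 and 109 CPM in GV against 7.75 and 11.3 in IVM MII, and SOHLH2, a helix-loop-helix factor of early oocyte growth, had 197 and 169.5 CPM in GV against 544 and 566 in IVM MII. FIGLA fell and SOHLH2 rose, without overlap of the groups in either, as in 77.8% of all tested genes. Among piRNA genes, which silence transposons, 8 of 28 tested members rose (28.6%) and 9 fell (32.1%). GTSF1, a cofactor of PIWI cleavage, had 2658 and 2811 CPM in GV against 194 and 300.1 in IVM MII, 11.1-fold lower, and ASZ1 (2.30 ± 0.28) rose. Scaling by library totals gave 9 higher and 4 lower among transcription factors, and 13 higher and 7 lower among piRNA genes.

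Oocyte genes were abundant in each of the 4 libraries, with GDF9 and ZP3 at 4004 CPM or more. Each list of markers of other cells summed to 390.5 CPM or less in every library. Summed over the 20 cumulus and granulosa markers in the table, levels were 39.1 and 33.4 CPM in GV and 81.04 and 79.6 CPM in IVM MII, of which 6 markers were tested. Of the 20, 8 had no count in any of the 4 libraries: AMHR2, INHA, FOXL2, NR5A1, HSD17B1, STAR, PTX3 and PTGS2. The remaining markers of this list had counts in 1 or more libraries. GREM1, which mature cumulus cells make, had 5.11 and 2.84 CPM in GV against 32.8 and 25.3 in IVM MII (log2 fold change 2.87 ± 0.35, adjusted p = 6.5e-05), and HAS2, which makes their hyaluronan, had 5.07 and 4.902 CPM in GV against 20.3 and 17.1 in IVM MII (log2 fold change 1.91 ± 0.37, adjusted p = 0.00149). CYP19A1, the aromatase of granulosa cells, was the member that fell, with 0.306 and 1.01 CPM in GV, no count in IVM MII replicate 1, which allows up to 0.0694 CPM, and 0.114 CPM in replicate 2 (adjusted p = 0.0271). Its call was lost without GV replicate 2 or IVM MII replicate 1 (adjusted p = 0.257 and 0.154). The other 3 tested markers of this list were not called. The 15 theca, stroma and endothelium markers summed to 332 and 390.5 CPM in GV and 163 and 155 in IVM MII, most of it VWF, at 288 and 337 CPM in GV against 105 and 102 in IVM MII. Of 7 tested, 1 rose and 2 fell. PECAM1, of endothelial cells, rose, with 11.1 and 7.54 CPM in GV against 19.2 and 19.7 in IVM MII (log2 fold change 1.06 ± 0.27, adjusted p = 0.00739), a call lost without GV replicate 2 (adjusted p = 0.0875). INSL3, a hormone of theca cells, fell with VWF, from 0.647 and 0.541 CPM in GV to no count in either IVM MII library, which allows up to 0.0694 and 0.0852 CPM. The 14 blood and immune markers summed to 13.6 and 13.5 CPM against 6.18 and 5.88, mostly CSF1R, which fell, at 13.4 and 13.2 CPM in GV against 5.37 and 4.49 in IVM MII. The other of the 2 tested, the B cell marker MS4A1, rose at a low level, with 0.1702 and 0.203 CPM in GV against 0.741 and 0.994 in IVM MII (log2 fold change 2.19 ± 0.64, adjusted p = 0.0137). Its call was lost without GV replicate 1, GV replicate 2 or IVM MII replicate 2 (adjusted p = 0.107, 0.0864 and 0.0767) and with DESeq2 (adjusted p = 0.0532). The part of these markers in the other results was not tested, and fewer cells of a type and less RNA per cell cannot be told apart.

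Features of the genes themselves went with the direction of change. With the tested genes put in 5 equal bins of exon length, the median log2 fold change rose from -0.49 in genes of 152 to 1442 bases through -0.22, 0.04 and 0.29 to 0.43 in genes of 5741 bases or more. The share that fell dropped from 37.1% to 13.0%, and the share that rose grew from 15.4% to 35.2%. Of the 743 genes that fell past 8-fold, 287 were in the bin of shortest genes and 56 in that of the longest. Across genes, which are not independent replicates, Spearman's rho with length was 0.22, and 0.13 with the number of exon blocks. The part of length in the lists was measured by removing the trend: 3701 genes then rose and 3865 fell. The median of respiratory complexes II to V went from -2.06 to -1.61, that of complex I from -1.82 to -1.34, that of tubulins from -2.33 to -2.30 and that of kinesins from 0.77 to 0.45. These 4 kept their direction. Medians over the arrest, ribosomal protein, proteasome, BCL2 and calcium lists changed sign.

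**Figure D5:**
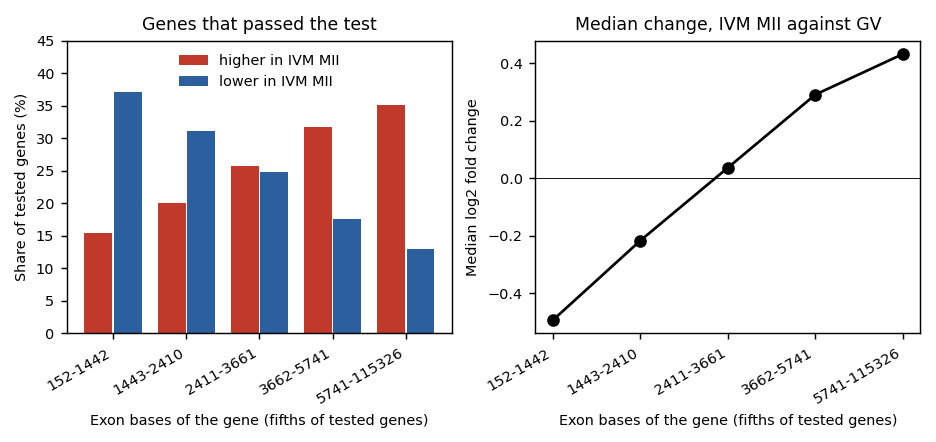
Left, share of tested genes that were higher (red) or lower (blue) in IVM MII than in GV in 5 equal bins of exon bases; right, median log2 fold change in the same bins. From the shortest to the longest bin the share that fell went from 37.1% to 13.0% and the median from -0.49 to 0.43.

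By mean level, again in 5 bins, the lowest had a median of -0.48, with 7.27% higher and 22.0% lower, and the highest a median of 0.38, with 39.7% higher and 20.7% lower. By chromosome, medians ran from -0.37 on chromosomes 19 and 10 to 0.44 on chromosome 17, where 35.4% of 381 tested genes rose and 17.1% fell. Chromosome 19 had 16.5% of 932 higher and 34.3% lower. Genes annotated as long noncoding RNA, matched by gene number to the RefSeq table of the later assembly T2T-MFA8v1.1, numbered 448 among those tested. Of these, 14.1% rose and 30.1% fell.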

How the data were processed

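RNA sequencing libraries of 2 GV and 2 IVM MII oocyte samples were compared, in a fit that also held 2 IVO MII libraries. The deposited table holds raw counts, which the authors made, per the file headers, with featureCounts 2.0.1 as read pairs over exons by gene on macFas5, without a strand option. The submitters' processing notes also name fastp, FastQC, Bowtie2 and SAMtools. Since Bowtie2 aligns without splicing, counts of short exons, paralogs, pseudogenes and overlapping genes are uncertain. Totals ran from 31421282 to 35515139 counts in the 4 libraries, and a floor of 3 counts per library bounds a level. No molecular identifiers are named in the sources used here.

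Genes kept by filterByExpr (15815, with 12349 left out) were fitted with edgeR 4.0.16 in R 4.3.3: TMM factors, robust quasi-likelihood test, groups as terms, two-sided, Benjamini-Hochberg at 0.05. Residual degrees of freedom were 3, and the fitted biological variation was 0.232. Of 11294 genes known by a LOC number, 721 took a symbol from the RefSeq table of T2T-MFA8v1.1, used for names only.

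The comparison, the 58 gene lists and the rule for named genes were chosen with earlier results of these data known. Named genes were the 10 largest rises and falls at 100 CPM or more with groups apart, the 8 highest per kilobase in each group, the 5 largest CPM changes each way, up to 3 per direction and list by adjusted p, and any member of the meiotic, storage, decay, egg coat, paracrine, maternal complex and marker lists; some of these genes are not reported here. Leaving out a library of a group assumes that the lone one varies like the others. Alternatives were DESeq2 1.42.0, limma-voom (limma 3.58.1), other scalings, filters, fits and left-out libraries. The procedure was tested on simulated data. No paired design is given in the sources used here.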

Additional observations from a re-analysis of the deposited data

How the results depend on the processing

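The number of genes higher in IVM MII was 4053 and the number lower 3908. A test for a fold above 2 gave 803 and 2060, and a strict filter of 10 CPM in 2 libraries, which tests fewer genes, gave 2268 and 2352. DESeq2 gave 3749 and 3836, limma-voom 4084 and 4111, RLE factors 3818 and 4061, library totals 5276 and 3004, and removing the length trend 3701 and 3865. With 1 library left out the counts ran from 2580 to 4452 higher and from 2752 to 4265 lower, the lowest without GV replicate 2. The median over all tested genes, 0.06 on the log2 scale, was -0.030 with the 4 compared libraries alone, 0.0094 with DESeq2, 0.0096 with RLE factors, 0.024 with the length trend removed, 0.35 with library totals, -0.087 with no low-count filter and 0.104 with the strict filter, and 0.0093 to 0.088 with 1 library left out. The cause of these shifts was not tested.

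The replicate number as a block gave 3982 genes higher and 3748 lower. It lost the call of 0 named genes. The sources name no link between replicates of 1 number, and the deviations of the GV and IVM MII replicates correlated at -0.144. The crossed pairing, added after seeing the data, gave 4669 higher and 4264 lower.

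The alternatives were followed gene by gene only for genes that the text names or the plot of the largest changes labels. Each of the 175 of them that passed the test kept its direction under every alternative that gave it a value. Of these genes, 43 lost the call under 1 or more alternatives. The test for a fold above 2 ended 41 of the calls. Under 1 or more of the other alternatives 13 genes lost the call, so some lost it both ways. Named genes that did not pass changed sign as follows: MOS to -0.14, CCNB1 to -0.18 and BCL2L10 to -0.12 with the strict filter, PTTG1 to 0.0087 with the length trend removed, and KHDC3L to 0.21 with library totals or the length trend removed. With 1 library left out, MOS ran from -0.093 to 0.39, BTG4 from -0.77 to 0.041 and KHDC3L from -0.36 to 0.26. With 2 libraries a group, changes near the spread between replicates are at the limit of detection.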

Other observations

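Further gene lists gave calls that the comparison above did not describe. Of all tested genes, 25.6% rose and 24.7% fell. Among DEAD and DEAH box helicases, which unwind RNA, 14 of 50 tested members rose (28.0%) and 16 fell (32.0%). DDX56, of ribosome assembly, had 144 and 229 CPM in GV against 17.8 and 11.9 in IVM MII, 12.6-fold lower. Ubiquitin E2 enzymes gave 11 rises (31.4%) and 12 falls (34.3%) among 35. UBE2K was at 36.9 and 35.9 CPM in GV against 100.4 and 88.6 in IVM MII. F-box adaptors, which pick the substrates of SCF ubiquitin ligases, gave 14 rises (23.7%) and 11 falls (18.6%) among 59. FBXW12 had 2175 and 3774 CPM in GV against 265 and 336 in IVM MII, 9.89-fold lower. When GV replicate 1 was left out, 7 helicases were called higher. Where GV replicate 2 was omitted, 5 helicases were called higher and 8 lower, and 5 E2 enzymes higher. Without IVM MII replicate 1, 7 helicases were called higher and 10 lower. Library totals moved the calls to 18 higher and 10 lower among helicases, and 16 higher and 10 lower among E2 enzymes. Without the trend on length the calls were 9 higher and 16 lower among helicases, and 11 higher and 10 lower among E2 enzymes.

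In the secretory list 16 of 52 tested members rose (30.8%) and 10 fell (19.2%), against 25.6% and 24.7% of all tested genes. SEC62, of the translocon, had 120.05 and 109 CPM in GV against 265 and 303 in IVM MII (log2 fold change 1.31 ± 0.22, adjusted p = 5.7e-04), while SRP14, of the signal recognition particle that docks ribosomes there, had 442 and 472 CPM in GV against 86.2 and 76.4 in IVM MII, 5.63-fold lower. RAB GTPases, the switches of vesicle traffic, gave 13 rises (27.1%) and 9 falls (18.75%) among 48. RAB28 (1.94 ± 0.25) and RAB10 (1.32 ± 0.22) were higher and RAB1B (-2.18 ± 0.40) lower. Mitochondrial carriers gave 10 and 14 among 38, and genes of fatty acid oxidation 3 and 8 among 21 (median -0.62). ECHS1, the hydratase of that pathway, had 14.3 and 19.2 CPM in GV against 2.75 and 2.53 in IVM MII, 6.34-fold lower. Once GV replicate 2 was removed, 10 secretory genes were called higher and 7 carriers lower. When IVM MII replicate 2 was left out, 9 secretory genes were called higher. With IVM MII replicate 1 removed, 8 RAB genes were called higher. Where GV replicate 1 was omitted, 1 fatty acid oxidation gene was called higher. Under library totals there were 22 higher and 6 lower among RAB genes, 13 higher and 10 lower among carriers, and 5 higher and 8 lower among fatty acid oxidation genes.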
